A study of Rattus norvegicus with 6 samples.

Results

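Interferon-stimulated genes and the interferon signalling pathway were examined in RUCA-I cells, an epithelial line from a rat endometrial adenocarcinoma of the Lewis strain. The list holds 43 genes given by symbol, grouped by pathway membership. The rule uses no measured value, but the list was drawn up with earlier results of these data known. It contains 4 receptor chains, 6 transcription factors, 3 cytosolic RNA sensors, 28 effectors and 2 feedback inhibitors. Of the 43 symbols, 38 matched a tested row of the authors' table, and because Ifitm2 and Ifitm3 share a row, these are 37 of 26459 tested rows. Oasl, Oas1b, Ifit2, Ifit3 and Xaf1 matched no tested row and have no expression value here. All of them but Ifit2 enter the promoter counts below. Only tested rows were searched, for these and for the other lists below.

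RNA sequencing compared 3 batches of wild-type (WT) cells with 3 separately made miR-203 knockout (KO) lines, genotype miR-203 -/-, all untreated and grown to near confluence in serum-containing medium. Each KO sample is a line of its own while the WT samples are batches of the parent line. What the KO lines share from being made as lines cannot be told apart from the loss of the microRNA. Differences among the KO lines are not visible in the values given here. How the lines were made is not given in the sources used here. For each gene row and group the authors gave 1 value in FPKM, a level corrected for transcript length and sequencing depth, which pools the 3 samples. There is therefore no SD, n or read depth behind a value. The only comparison with the spread between samples is the authors' own Cuffdiff test, whose q is a p-value adjusted over all tested rows. A gene is called here where the authors' q was under 0.05. In bulk RNA, fewer cells that express a gene and less RNA per cell cannot be told apart.

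The deleted microRNA is shown for orientation, as mature sequences from RefSeq (GRCr8, chromosome 6, plus strand) with the seed, bases 2 to 8, in capitals. Target sites in the interferon genes were not searched.
rno-miR-203a-3p: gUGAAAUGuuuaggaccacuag
rno-miR-203a-5p: aGUGGUUCuuaacaguucaac

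Type I interferons bind the Ifnar1 and Ifnar2 chains and interferon gamma binds Ifngr1 and Ifngr2, and both receptors signal through Janus kinases. Type I interferons act on promoters through the interferon-stimulated response element (ISRE), which a complex containing Stat2 and Irf9 binds. Interferon gamma acts through the gamma-activated site (GAS). The genes so induced block viral entry, translation and replication, and many of them are also expressed at a low tonic level in epithelial cells that have met no virus.

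The cells carried the markers of their type. Of 8 epithelial markers, 7 had a row, with WT levels from 40.5 FPKM for Muc1 to 501 for Epcam, and none was called. Among 10 leukocyte markers, 3 had a row and all 3 were lower in KO cells, with a summed level of 39.7 FPKM in WT cells and 30.3 in KO cells. Of these, Cd79a stood at 31.7 and 23.9 FPKM, Cd14 at 7.19 and 6.28, and Csf1r was called lower (0.791 to 0.2004 FPKM, q = 0.0187 in the authors' deposited table). Of 6 fibroblast markers 1 had a row, Col1a1 at 1.43 and 1.17 FPKM, and of 5 endothelial markers none did. The part of such cells in the interferon values was not tested.

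Among the 37 interferon rows, 3 were called higher in KO cells (Mx2, Bst2 and Oasl2), 1 was called lower (Rsad2) and 33 were not called. All 4 encode antiviral effectors, which make up 22 of the 37 rows. No receptor, transcription factor, RNA sensor or feedback inhibitor was called, but these roles have only 2 to 6 rows each, too few to compare roles. Of all tested rows, 0.491% were called higher, 0.556% were called lower and 1.05% were called in either direction, and the last share was 1.43% over named rows averaging 1 FPKM or more. At an unadjusted p under 0.05 in the authors' deposited table, 11 of the 37 rows were higher and 4 were lower, where 3.25% of all tested rows were higher and 2.75% were lower.

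The differences were small and mostly upward. KO cells had the higher value in 26 of 37 interferon rows, against 53.7% of all tested rows. The log2 of (KO + 1)/(WT + 1), in FPKM, had a median of 0.08 over the 35 interferon rows averaging 1 FPKM or more, against 0.0046 over all 18090 such rows. Mx1 and Rsad2 were below that mean. Of the 35, 16 lay above the upper quartile of all rows (0.13) and 7 below their lower quartile (-0.11). The direction of the median depends on how the 2 groups are scaled. The summed FPKM of all tested rows was 928084 in WT and 1039622 in KO cells. Over loci of at least 300 bp it was 402982 and 424009, so most of the excess lay in shorter loci. Setting the sums over all tested rows equal moves the median of all rows to -0.14 and that of the interferon rows to -0.05. Then 16 of the 35 interferon rows are higher, against 24.7% of all 18090 rows averaging 1 FPKM or more. With equal sums over loci of at least 300 bp the interferon median stays positive at 0.028. Then 19 of the 35 are higher, against 37.0% of all such rows. Relative to the median of all rows, the interferon rows stood 0.08 above it as deposited and 0.09 above it under either scaling. These shifts describe 2 pooled values and are not a test of the list.

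**Figure D1:**
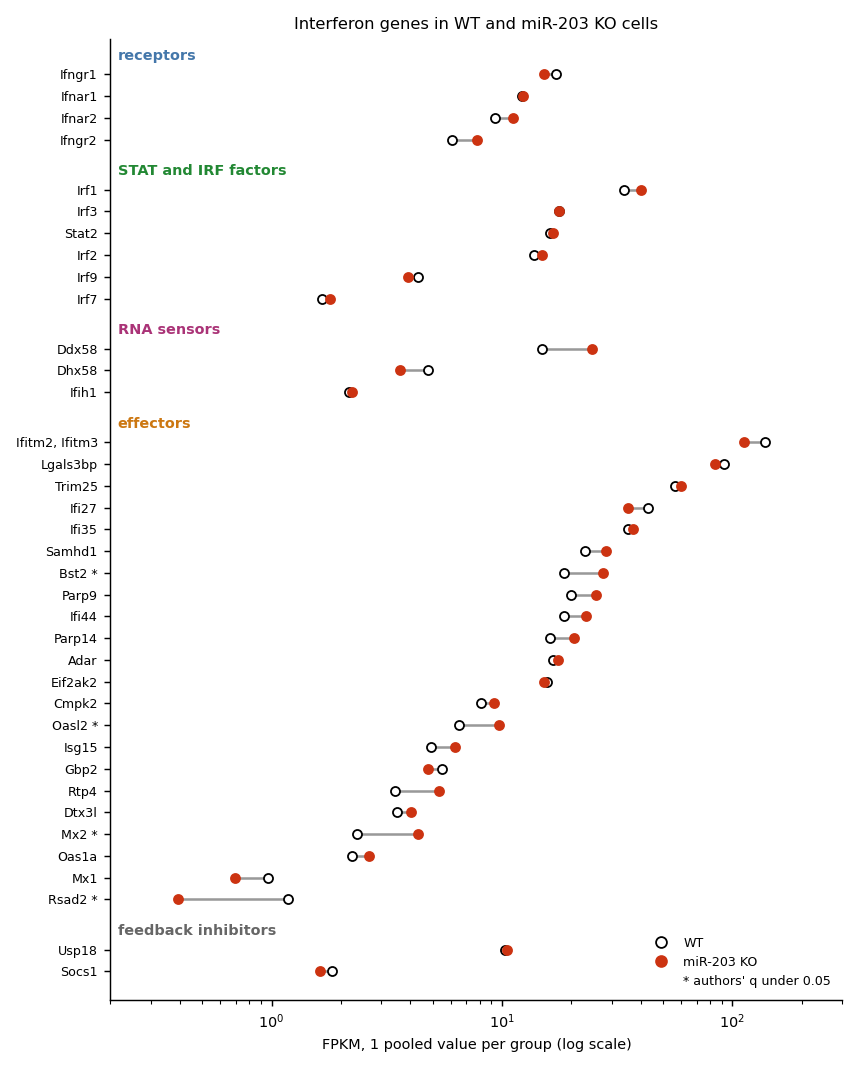
Each line joins the FPKM of a gene row in WT (open) and miR-203 KO cells (filled), on a log axis and sorted by level within each role; a star marks rows called by the authors' test. Rows run by mean level from Rsad2, at 1.17 FPKM in WT cells and 0.393 in KO cells, to that of Ifitm2 and Ifitm3. The latter stood at 138 FPKM in WT cells and 112 in KO cells, and most lines are short.

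**Figure D2:**
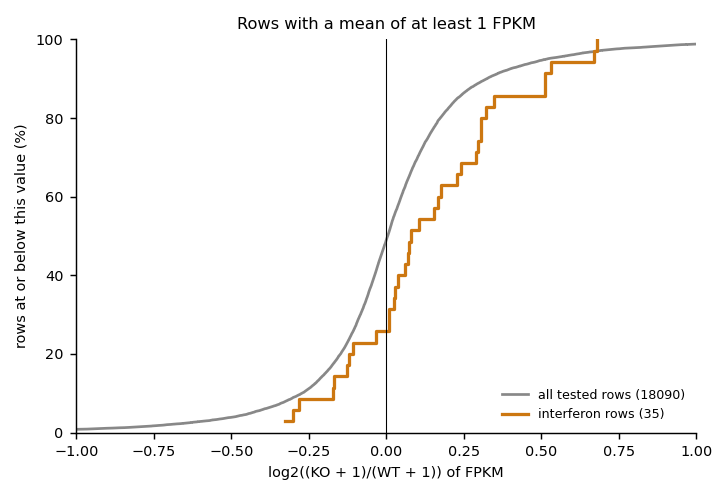
The curves give the percentage of rows at or below each log2 ratio of KO to WT, with a pseudocount of 1, for all 18090 rows averaging 1 FPKM or more (grey) and the 35 interferon rows among them (orange). The interferon curve lies to the right over the middle and upper range, with medians of 0.08 and 0.0046.

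None of the receptor chains was called, and their WT levels ran from 6.10 FPKM for Ifngr2 to 17.2 for Ifngr1. Ifnar1, the signalling chain that holds Tyk2, stood at 12.2 FPKM in WT cells and 12.3 in KO cells. Ifnar2, which binds type I interferon with high affinity and holds Jak1, stood at 9.34 and 11.1 FPKM. Ifngr1, the ligand-binding chain for interferon gamma, was listed at 17.2 FPKM in WT cells and 15.2 in KO cells. Ifngr2, its partner that holds Jak2, stood at 6.10 and 7.78 FPKM, with p = 0.03795 and q = 0.779 in the authors' deposited table. Thus 3 of 4 receptor chains were higher in KO cells, although Ifnar1 turns lower when the summed FPKM is set equal, and the differences from WT ranged from -11.7% for Ifngr1 to 27.6% for Ifngr2.

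No transcription factor was called either. Irf1, an early activator downstream of interferon gamma, was the most abundant at 33.9 FPKM in WT cells and 40.3 in KO cells (p = 0.0329, q = 0.745 in the authors' deposited table). Its relative Irf2, which competes for the same sites, stood at 13.8 and 14.9 FPKM. Irf3, the constitutive factor that sensors activate to start interferon production, was listed at 17.6 and 17.7 FPKM. Stat2 stood at 16.1 and 16.6 FPKM. Irf7, which amplifies the type I response and is itself interferon-induced, was low in both groups, at 1.65 and 1.79 FPKM.

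Irf9, a DNA-binding partner of Stat2, is the least certain of the factors. It has 2 tested rows at 1 locus (chromosome 15, 34269996 to 34289076 on rn6). The row with the higher mean was at 4.34 FPKM in WT cells and 3.91 in KO cells, and the other was at 3.21 and 4.02. The authors' deposited table gives test statistics of -0.05 and 0.12 for these rows, so Irf9 has no clear direction here.

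The 3 RNA sensors went in different directions. Ddx58, or RIG-I, which recognises viral RNA ends (chromosome 5, 56511036 to 56536946), was listed at 15.0 FPKM in WT cells and 24.6 in KO cells, 1.64-fold higher. This is the second largest ratio upward in the list, yet it was not called (statistic 1.42, p = 0.0153, q = 0.519 in the authors' deposited table). Bst2 had a smaller ratio and a larger statistic, 2.30, in the same table. Ifih1, or MDA5, the sensor of long double-stranded RNA, stood at 2.18 and 2.24 FPKM. Dhx58, or LGP2, which lacks the signalling domain of the other sensors and modulates them, was lower at 4.78 and 3.61 FPKM (p = 0.0192, q = 0.582 in the authors' deposited table). None of the sensors passed the test, and the difference between Ddx58 and Dhx58 was not itself tested.

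Effectors held all 4 calls and made up 22 of the 37 interferon rows. Of these 22 rows, 3 rose, 1 fell and 18 did not pass. Over all tested rows, 0.491% were called higher and 0.556% were called lower. Mx2, a dynamin-like GTPase of the Mx family of antiviral proteins (chromosome 11, 38033855 to 38059725), rose from 2.35 FPKM in WT to 4.32 in KO cells, 1.84-fold (q = 0.00756 in the authors' deposited table). Its neighbour Mx1, 137 kb away, was listed at 0.966 FPKM in WT cells and 0.692 in KO cells and did not pass (q = 0.997 in the authors' deposited table). The 2 Mx genes are close paralogs, so the share of reads each received is uncertain, and both were low.

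Bst2, or tetherin, which holds budding virus particles at the cell surface (chromosome 16, 19941218 to 19942375), rose from 18.6 to 27.3 FPKM. The ratio is 1.47-fold (q = 0.00756 in the authors' deposited table). A second, shorter Bst2 row beside it was listed at 0.813 FPKM in WT cells and 1.39 in KO cells and did not pass (q = 0.797 in the authors' deposited table). Bst2 is the most abundant of the called genes. Its p of 5e-05 in the authors' test is the smallest that occurs in the table, and Mx2 has the same p. Many rows outside the list share this lowest value, so it does not rank the genes.

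Oasl2, an oligoadenylate synthetase-like protein (chromosome 12, 47469427 to 47483026), rose from 6.49 to 9.69 FPKM, 1.49-fold (q = 0.0351 in the authors' deposited table). Oas1a, a synthetase that activates RNase L, lies at a locus that Oas1f shares and stood at 2.22 FPKM in WT cells and 2.65 in KO cells. Oas1f was listed at 2.40 and 2.57 FPKM. Reads of such near copies can be split in more than one way, and neither row passed.

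Rsad2, or viperin, which makes a chain-terminating nucleotide that stops viral polymerases (chromosome 6, 45657438 to 45668991), went the other way. It fell from 1.17 FPKM in WT to 0.393 in KO cells, 2.99-fold lower (q = 0.0187 in the authors' deposited table). The fold rests on low values and was -1.58 as the authors' log2 and -0.64 with the pseudocount of 1. Cmpk2, a mitochondrial nucleotide kinase that lies 14.5 kb from Rsad2 and is transcribed from the opposite strand, was listed at 8.09 FPKM in WT cells and 9.20 in KO cells (q = 0.997 in the authors' deposited table). The pair therefore pointed in opposite directions, and the difference between them was not tested.

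The promoters of 3 of the 4 called genes are printed, to show the letters of the interferon response element in them. Sequences are RefSeq windows on GRCr8, another build than the rn6 of the expression table, and 34 of the 43 symbols matched a window. Irf2, Ddx58, Dhx58, Mx2, Isg15, Ifit2, Adar, Rtp4 and Usp18 had none. For Bst2, Oasl2 and Rsad2 the 250 bases before the annotated start are given 5′ to 3′ on the strand of the gene. Capitals mark the ISRE core GAAANNGAAA, searched on both strands, so that a match on the other strand reads as TTTC at either end.
Bst2, chr16:18254968-18255217, minus strand: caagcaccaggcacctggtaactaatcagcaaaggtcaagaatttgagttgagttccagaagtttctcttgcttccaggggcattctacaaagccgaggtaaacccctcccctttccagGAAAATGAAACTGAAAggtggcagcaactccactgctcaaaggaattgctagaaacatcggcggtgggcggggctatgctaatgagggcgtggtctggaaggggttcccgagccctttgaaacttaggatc
Oasl2, chr12:47383186-47383435, minus strand: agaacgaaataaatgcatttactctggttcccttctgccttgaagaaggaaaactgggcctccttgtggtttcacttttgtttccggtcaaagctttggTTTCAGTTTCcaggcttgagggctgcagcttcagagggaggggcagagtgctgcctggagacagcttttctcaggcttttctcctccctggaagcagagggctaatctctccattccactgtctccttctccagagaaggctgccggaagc
Rsad2, chr6:48788121-48788370, minus strand: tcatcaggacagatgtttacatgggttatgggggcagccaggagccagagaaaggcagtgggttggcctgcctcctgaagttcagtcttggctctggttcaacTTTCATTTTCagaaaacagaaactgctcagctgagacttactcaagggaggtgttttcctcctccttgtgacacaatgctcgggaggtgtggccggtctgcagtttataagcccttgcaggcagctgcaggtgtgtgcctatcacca

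Bst2, which rose, holds 2 overlapping copies of the core, starting 131 and 125 bases before the start. Oasl2, which rose, and Rsad2, which fell, each hold 1 copy on the other strand, at 151 and 147 bases before the start. The called genes with a window thus share the core, at similar distances, whichever direction they took.

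The same core lay in members that were not called, also in both directions. The windows of 60 bases below show the row of Ifitm2 and Ifitm3, with the lowest log2 ratio among uncalled genes that hold the core before the start (-0.30), and the 2 with the highest, Parp14 (0.32) and Ifi44 (0.31). Ifi44 holds a second copy after the start.
Ifitm3, chr1:205541763-205541822, minus strand: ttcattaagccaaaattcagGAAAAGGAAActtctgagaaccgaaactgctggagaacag
Ifitm2, chr1:205482349-205482408, minus strand: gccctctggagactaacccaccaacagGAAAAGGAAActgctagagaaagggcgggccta
Parp14, chr11:78408038-78408097, plus strand: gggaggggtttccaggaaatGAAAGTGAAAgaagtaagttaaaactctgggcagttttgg
Ifi44, chr2:243303841-243303900, minus strand: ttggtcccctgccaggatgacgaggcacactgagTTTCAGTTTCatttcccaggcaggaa

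Across the list, 19 of 34 promoter windows (55.9%) held the ISRE core between 250 bases before and 50 after the start, against 3.92% of all 33469 windows. By role these were 16 of 23 effectors, 1 of 5 transcription factors (Irf7), the sensor Ifih1, the inhibitor Socs1 and 0 of 4 receptor chains. The effectors with the core include Oas1b, Ifit3 and Xaf1, which have no expression value here. The GAS motif TTCNNNGAA, which reads the same on both strands, lay in 10 of 34 windows (29.4%) against 8.87% of all. In Bst2 it overlaps the first ISRE core. Among rows with both a value and a window, the 15 with the core had 8 higher in KO cells and a median log2 ratio of 0.03, ranging from -0.64 to 0.53. The 14 without it had 11 higher and a median of 0.08, from -0.22 to 0.35. Among rows with a window, those that hold the core did not have the higher median. The calls in these rows, 2 higher and 1 lower, all fell among the 15 with the core, too few to compare the groups. Of all tested rows, 0.491% were called higher and 0.556% were called lower. Members without a window are in neither group, among them Ddx58 (0.68), Mx2 (0.67, called higher), Rtp4 (0.51) and Dhx58 (-0.33). No test compared the groups or the roles. A match describes these letters and does not show binding.

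**Figure D3:**
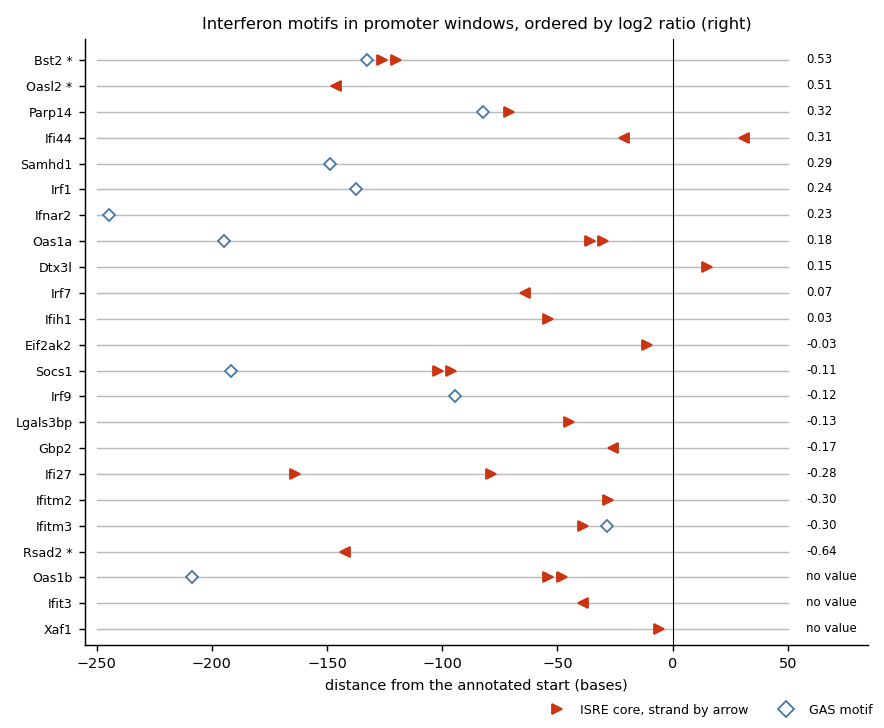
Each line is the promoter window of a member with at least 1 motif, by distance from the annotated start in bases; arrows mark the ISRE core with its strand, diamonds the GAS motif, and the log2 ratio of KO to WT is at the right. Members are sorted by that ratio, and the core occurs from Bst2 (0.53) at the top to Rsad2 (-0.64), below which stand 3 members with no expression value.

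Among effectors that were not called, the 3 nearest to the threshold, Parp14, Rtp4 and Samhd1, had the higher value in KO cells. Parp14, a mono-ADP-ribosyltransferase, was listed at 16.2 FPKM in WT cells and 20.5 in KO cells (p = 0.00205, q = 0.138 in the authors' deposited table). Rtp4, a chaperone of membrane receptors that also limits RNA viruses, stood at 3.42 and 5.30 FPKM (p = 0.00265 and q = 0.166 in the authors' deposited table). Samhd1, which degrades the nucleotides needed for reverse transcription (chromosome 3, 153207821 to 153250606), stood at 22.9 and 28.3 FPKM (p = 0.00695 and q = 0.319 in the authors' deposited table). Ifi44, a cytoplasmic protein of the response, was listed at 18.6 and 23.2 FPKM (p = 0.0159 and q = 0.528 in the authors' deposited table).

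Parp9 and Dtx3l encode partners that form an ADP-ribosylating ubiquitin ligase, and the authors' table lists both at 1 merged locus (chromosome 11, 67650827 to 67840799). Parp9 stood at 19.8 FPKM in WT cells and 25.5 in KO cells (p = 0.06005, q = 0.872 in the authors' deposited table). Dtx3l has 3 rows there, and the largest stood at 3.50 and 4.01 FPKM. All 4 rows of the pair were higher in KO cells without passing. Merged loci make the division of reads between the partners uncertain.

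Other effectors had the lower value in KO cells without being called, some of them among the most abundant. The row of Ifitm2 and Ifitm3, membrane proteins that block viral entry, stood at 138 FPKM in WT cells and 112 in KO cells (p = 0.0102, q = 0.4002 in the authors' deposited table). Lgals3bp, a secreted galectin-binding glycoprotein, was listed at 91.9 and 84.2 FPKM. Ifi27, a small hydrophobic protein of the response, stood at 42.9 and 35.1 FPKM (p = 0.0306 and q = 0.7204 in the authors' deposited table). Gbp2, a guanylate-binding GTPase, was at 5.496 FPKM in WT cells and 4.77 in KO cells. The summed FPKM of the 22 effector rows was nearly level, 531 in WT and 532 in KO cells, although 15 of the 22 were higher in KO cells before any scaling.

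The remaining effectors beside Isg15 are Adar, Eif2ak2, Trim25 and Ifi35. Adar, which edits adenosines in double-stranded RNA, stood at 16.7 and 17.5 FPKM in the largest of its 5 rows. Eif2ak2, the kinase PKR that halts translation, was listed at 15.7 and 15.3 FPKM. Trim25, a ubiquitin ligase that acts on RIG-I, stood at 56.2 and 59.5 FPKM. Ifi35, a leucine zipper protein that pairs with Nmi, was at 35.2 and 37.0 FPKM. None of them had an unadjusted p under 0.05 in the authors' deposited table. The differences of Adar, Trim25 and Ifi35 change sign when the summed FPKM of both groups is set equal. With equal sums over loci of at least 300 bp, those of Adar and Ifi35 change sign and that of Trim25 does not.

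**Figure D4:**
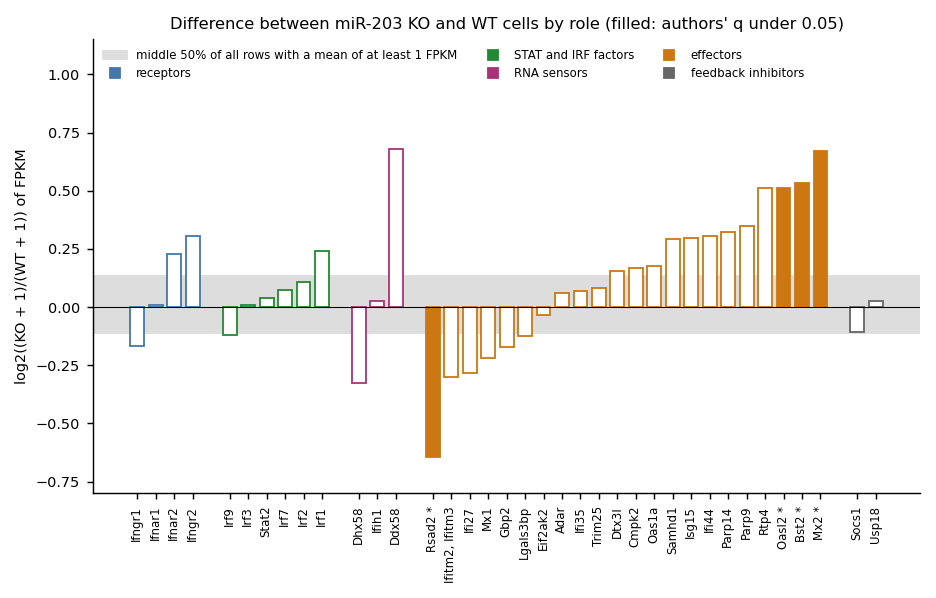
Bars give log2((KO + 1)/(WT + 1)) of FPKM for each interferon row, grouped by role, with filled bars for rows called by the authors' test; the grey band is the middle 50% of all rows averaging 1 FPKM or more (-0.11 to 0.13). Effector bars run from Rsad2 at -0.64 to Mx2 at 0.67, and Ddx58 has the longest upward bar at 0.68 without being called.

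Isg15 is the ubiquitin-like modifier of the interferon response. It stood at 4.90 FPKM in WT cells and 6.25 in KO cells (p = 0.0288, q = 0.701 in the authors' deposited table). Its activating enzyme Uba7 was at 6.72 and 7.54 FPKM. Its conjugating enzyme Ube2l6 was lower, at 10.2 FPKM in WT cells and 6.35 in KO cells (p = 0.0022 and q = 0.147 in the authors' deposited table). Herc6, the rodent ligase for Isg15, was low at 0.805 and 1.03 FPKM. Usp18, which removes Isg15 from proteins and also blocks signalling at Ifnar2, stood at 10.3 and 10.5 FPKM. Socs1, the inhibitor that binds Janus kinases, was low at 1.83 and 1.63 FPKM (q = 0.997 in the authors' deposited table). Neither feedback inhibitor passed the test, and Isg15, Uba7, Ube2l6 and Herc6 did not pass either.

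The rest of the pathway was taken from 3 further lists. Of 13 ligands and related cytokines only Il15 had a tested row, at 4.17 FPKM in WT cells and 5.05 in KO cells. No interferon gene of that list had a tested row. Of 30 signalling and sensing genes 26 had a row, of which none was called higher and 1 was called lower, where 0.491% and 0.556% of all tested rows were. The gene called lower was Tmem173, or STING, the adaptor of cytosolic DNA sensing, which fell from 1.48 to 0.676 FPKM (q = 0.0269 in the authors' deposited table). Mb21d1, or cGAS, the DNA sensor upstream of it, stood at 6.29 and 5.30 FPKM in its longer row. A second Mb21d1 row, at a short locus beside it, was higher in KO cells, at 89.5 and 106 FPKM. Mavs, the adaptor of the RNA sensors, was at 8.11 and 9.55 FPKM, and neither it nor Mb21d1 passed.

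Among the signalling genes the 3 most abundant were Stat3 (60.1 FPKM in WT cells and 69.3 in KO cells), Jak1 (45.05 and 50.5) and Ptpn11 (45.95 and 40.5), none of them called. Jak2 was listed at 44.5 and 34.9 FPKM (p = 0.00115 and q = 0.09002 in the authors' deposited table) and did not pass.

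Of 57 other interferon-stimulated genes, 38 had a row, of which 1 was called higher and none lower, beside the same 0.491% and 0.556% of all tested rows. It was Trim21, a ubiquitin ligase and cytosolic antibody receptor, which rose from 4.91 to 7.08 FPKM (q = 0.0137 in the authors' deposited table). KO cells had the higher value in 25 of the 38 rows, and the median log2 ratio was 0.05 over the 32 rows averaging 1 FPKM or more. Over all tested rows 53.7% were higher, and the median of all rows averaging 1 FPKM or more was 0.0046, all as deposited. Under equal sums the median of all rows moves to -0.14, and that of this list was not computed. The 3 most abundant did not pass: Plscr1 (97.4 FPKM in WT cells and 83.3 in KO cells), Zc3hav1 (73.9 and 75.8) and Shisa5 (58.8 and 59.4). Plscr1 has 3 rows at its locus, and the others stood at 79.8 and 77.7 FPKM and at 11.6 and 15.3. Cxcl10, a chemokine that responds to both interferon classes, stood at 23.5 and 21.7 FPKM.

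Position was looked at after the values were seen. On chromosome 11 of the authors' table lie 9 members. These are Ifnar2, Ifnar1, Ifngr2, Mx1, Mx2, Parp9, Dtx3l, Parp14 and Rtp4, and 8 of the 9 were higher in KO cells, Mx1 being the exception and Ifnar1 turning lower under equal sums. Parp9 and Dtx3l share a merged locus there. Of the 9 members 1 was called higher, Mx2, and none lower. Among the 682 other tested rows of that chromosome, 57.2% were higher, with 7 called higher and none lower. Over all tested rows 53.7% were higher, with 0.491% called higher and 0.556% called lower. The median log2 ratio of these 9 members was 0.31, against 0.04 for the other rows of the chromosome. It was 0.05 for the 28 interferon rows elsewhere. These medians include rows averaging under 1 FPKM, and without such rows they were 0.31, 0.02 and 0.06. The contrast is a description.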

How the data were processed

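Total RNA of 3 WT and 3 KO samples was sequenced from stranded libraries (dUTP method, per the labels' protocols). Per the submitters' processing notes the authors worked on rn6 with TopHat 0.9, Cufflinks 2.2.1 and Cuffdiff 2.2.1.3, and the gene annotation is not given in the sources used here. Deposited by the authors were FPKM per group, the log2 fold change, p-value, q-value and a test statistic, a score without fixed range, per the file headers. The table has decimal commas and holds 26751 rows, of which 26459 were tested. The authors' q equalled a Benjamini-Hochberg adjustment of their p-values in all 26459 (relative tolerance 1e-04). The plan foresaw limma for values per sample, and with pooled values no test was run here. A symbol took its longest locus, ties going to the higher mean. Ratios are log2((KO + 1)/(WT + 1)), which understates changes of low genes. All members and the called or 3 most abundant genes of other lists are named, and further genes were picked with their values in view. The members and lists were chosen with earlier results of these data known. The adjustment, row choice and motif search were tested on simulated data. Promoter windows overlapping on opposite strands were reverse complements in 1273 of 1273 cases. Python 3.11.15, pandas 2.3.3 and NumPy 2.4.6 were used.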

Additional observations from a re-analysis of the deposited data

How the results depend on the processing

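The count of 3 interferon rows called higher was 2 at q under 0.01 and 2 with q adjusted anew over rows averaging 5 FPKM or more, which leaves Mx2 untested, and 3 under the other 4 settings. The 1 row called lower, Rsad2, became 0 at q under 0.01, and 0 with q adjusted over rows averaging 1 or 5 FPKM or more, where it is not tested. The median log2 ratio of 0.08 became -0.046 when both groups were scaled to the same sum over all tested rows and 0.028 with the sum over loci of at least 300 bp. Under the other 11 settings it lay between 0.06 and 0.11. These include leaving out chromosome 11, leaving out called genes and summing all rows of a symbol, which, like q over named rows, were chosen after seeing the data. The 2 sum scalings changed the sign of 10 and 7 of 38 members, none of them called; pseudocounts, the upper quartile, centring and the highest row changed none. No paired analysis was possible because each group has 1 pooled value, and leaving out replicates was not possible for the same reason.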
